A study of Homo sapiens with 8 samples.

Results

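FABP1, PPARA and 6 enzymes of fatty acid oxidation (CPT1A, CPT2, ACADM, ACADVL, HADHA and ACSL1) were compared between sorafenib-resistant and parental human liver cancer cells. The members were chosen by symbol, and each of the 8 symbols matched 1 Ensembl gene identifier of the 63241 in the expression tables. Sorafenib is a multikinase inhibitor used against advanced hepatocellular carcinoma (HCC), and HepG2 and Huh7 are established human liver tumor lines. The WT groups of HepG2 and Huh7 were the parental, drug-sensitive cells with the treatment label control, and the SR groups were derived from them by stepwise exposure to rising drug and carry the treatment label sorafenib. The labels give neither the dose nor whether the drug was present at harvest, and no engineered allele is named for any group. Polyadenylated RNA was sequenced in 2 libraries per group, 8 in all, under 1 batch label. Nothing states that the 2 libraries of a group came from separate cultures, so the p-values measure only the spread between these samples, which may be technical. Because these are bulk samples, fewer cells that express a gene and less RNA per cell cannot be told apart.

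Hepatocytes obtain much of their energy by burning fatty acids in mitochondria. FABP1, the liver fatty acid binding protein, carries fatty acids through the cytosol, and ACSL1 joins them to coenzyme A. CPT1A, at the outer mitochondrial membrane, converts long-chain acyl-CoA to acylcarnitine and is the controlled step of entry, and CPT2 at the inner membrane turns it back. ACADVL and ACADM are the dehydrogenases that open each cycle of beta-oxidation for very long and medium chains, and HADHA is the alpha subunit of the trifunctional protein that carries out later steps of the cycle. PPARA is the nuclear receptor that senses fatty acids and, paired with RXRA, switches on many of these genes in liver, FABP1 and CPT1A among them.

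The libraries did not group by their labelled cell line. Over the 15173 genes with a value of at least 1 FPKM (fragments per kilobase of transcript, scaled to the mapped reads of the library) in at least 2 libraries, Pearson's r of log2(FPKM + 1) lay between 0.914 and 0.977 among Huh7 SR 2, Huh7 WT 2 and the 3 HepG2 libraries other than SR 2. Huh7 WT 1 and Huh7 SR 1 correlated with each other at 0.965 but with those 5 libraries at 0.731 to 0.783. HepG2 SR 2 stood apart from both sets, at 0.775 to 0.819 with the 5 and 0.815 to 0.846 with Huh7 replicate 1. Within the 5, Huh7 SR 2 correlated at 0.946, 0.962 and 0.977 with HepG2 WT 1, HepG2 WT 2 and HepG2 SR 1. With Huh7 WT 2 it correlated at 0.914, and with Huh7 WT 1 and Huh7 SR 1 at 0.731 and 0.760. The part of this closeness to HepG2 in the FABP1 level of Huh7 SR 2 was not tested. These correlations are across genes, which are not independent replicates. The spacing of low values put depth at an estimated 28.2 to 53.7 M reads per library, and HepG2 WT 2 listed 38276 genes above 0 against 27188 to 29071 in the others. Labels were kept as given, and values are from all 8 libraries unless stated. For the members, the gene lists and the called genes, values are also given without the 3 libraries that stood apart (HepG2 SR 2, Huh7 WT 1 and Huh7 SR 1) where these change a call or a direction, a choice made after the values were seen. The 5 libraries left hold 1 WT and 1 SR library of Huh7 and 1 SR library of HepG2. Residual spread there comes from the 2 HepG2 WT libraries alone, so a call there says nothing about the spread in the other groups.

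Of the 8 genes, only FABP1 was called between SR and WT by the fixed rule, and only in Huh7, where it was higher in SR. SR and WT were compared within each cell line by limma on log2(FPKM + 1), and a gene was called at an unadjusted p under 0.05 with a log2 change of at least 0.5 in size. The rule called 325 genes in HepG2 (2.14% of those tested) and 283 in Huh7 (1.87%). None of the 8 members was called in HepG2 and 1 was called in Huh7, and at shares this low the count says little about the members as a set. No gene of the transcriptome reached a Benjamini-Hochberg adjusted p under 0.05 in either line, and the 325 and 283 are also the numbers of genes with an unadjusted p under 0.05. Both numbers are below the share of 0.05 of all genes that such a cut passes when no gene changes. The smallest adjusted p was 0.956 in HepG2 and 1.0 in Huh7, so every call in this report rests on unadjusted p-values. For the 8 members the adjusted p was 0.956 to 0.994 in HepG2 and 1.0 in Huh7.

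FABP1 lies on chromosome 2 from 88122982 to 88128116 on the minus strand (GRCh38, GENCODE release 29), with no annotated gene overlapping it. Its promoter is shown because FABP1 was the member called. The 250 bases before the RefSeq start (GRCh38.p14, chr2:88128063-88128312, minus strand) are written 5′ to 3′, and capitals mark a match to the PPAR-type direct repeat and the TATA box sequence.
FABP1: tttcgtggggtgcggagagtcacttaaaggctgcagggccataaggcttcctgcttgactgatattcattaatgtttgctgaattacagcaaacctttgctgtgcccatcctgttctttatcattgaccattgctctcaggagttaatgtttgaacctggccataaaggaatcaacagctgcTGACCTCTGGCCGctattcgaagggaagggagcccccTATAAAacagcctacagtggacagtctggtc
The first capitals, 68 to 56 bases before the start, read on the opposite strand as 2 copies of AGGTCA with 1 base between them and 2 mismatches. A repeat with up to 2 mismatches, on either strand, was found in 2.97% of 35116 RefSeq promoter windows of 300 bases (250 before and 50 after the start). The window of FABP1 also holds AGGTCA without mismatch on both strands, once inside this repeat and once 11 to 16 bases after the start, and 13.8% of windows hold that half-site. TATAAA stood 31 to 26 bases before the start, and 2.63% of promoters have it on the gene's strand within 50 bases of the start.

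The 8 members had 14 promoter windows in RefSeq, since PPARA and ACADVL have 2 and ACSL1 has 5. None of the windows of PPARA, CPT1A, CPT2, ACADM, ACADVL or HADHA held the repeat or an exact AGGTCA. For comparison with FABP1, the 120 bases before the start are shown for CPT1A (chr11:68844278-68844397, minus strand), for ACADM (chr1:75724589-75724708, plus strand) and for the ACSL1 start that carries the only other match to the repeat among the members (chr4:184805554-184805673, minus strand), with the match in capitals.
CPT1A: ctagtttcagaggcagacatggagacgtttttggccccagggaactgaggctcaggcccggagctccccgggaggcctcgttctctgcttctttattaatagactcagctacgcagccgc
ACADM: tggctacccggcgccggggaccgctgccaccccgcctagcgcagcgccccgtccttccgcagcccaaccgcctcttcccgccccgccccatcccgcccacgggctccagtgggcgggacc
ACSL1: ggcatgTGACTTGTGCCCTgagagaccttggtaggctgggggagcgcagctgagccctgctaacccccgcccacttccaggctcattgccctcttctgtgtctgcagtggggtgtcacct
The ACSL1 match also has 2 mismatches and lies 114 to 102 bases before that start, on the opposite strand. That start is 1 of 5 and lies inside the annotated span of ACSL1. The outermost ACSL1 window (chr4:184825919-184826218, GC 82.3%) held no match. GC content over these stretches was 48.0% for the 250 bases of FABP1, 57.5% for CPT1A, 79.2% for ACADM and 62.5% for ACSL1. A match is a run of letters and not a measured site of binding, and the search covered only these windows.

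FABP1 was higher in SR than in WT in both cell lines. In HepG2 its level was 35.0 and 58.2 FPKM in WT 1 and WT 2, and 78.9 and 291 FPKM in SR 1 and SR 2. In Huh7 it was 7.18 and 2.36 FPKM in WT, and 39.9 and 92.2 FPKM in SR. In each line both SR libraries lay above both WT libraries, the groups did not overlap, and the highest value of all was in HepG2 SR 2. The group means were 46.6 ± 16.4 (SD, n = 2) in WT and 185 ± 150.0 (SD, n = 2) in SR for HepG2, and 4.77 ± 3.41 (SD, n = 2) in WT and 66.1 ± 37.0 (SD, n = 2) in SR for Huh7. The lowest value, in Huh7 WT 2, corresponded to an estimated 58 to 220 reads, depending on whether the shortest or the longest annotated transcript is taken.

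In Huh7 the fitted rise of FABP1 was 3.56 on the log2(FPKM + 1) scale (SE 0.77, 95% interval 1.72 to 5.39, adjusted p = 1.0 by limma), or 11.8-fold. In this fit it was the largest rise of the 15173 genes tested. Leaving out each library in turn gave 2.92 to 4.20, called each time, and the 5 libraries of like expression gave 4.79, also called. Those 5 libraries leave 1 WT and 1 SR library in Huh7 and 1 SR library in HepG2, which are assumed to vary like HepG2 WT, the only group with 2.

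In HepG2 the fitted difference of FABP1 was 1.73 (SE 0.77, 95% interval -0.11 to 3.56, adjusted p = 0.956 by limma), which was not called. HepG2 SR 2 carried much of it. Without that library the difference was 0.79 and not called, and without HepG2 SR 1 it was 2.66 and called.

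The rise in Huh7 exceeded that in HepG2 by 1.83 on the log2 scale (SE 1.09, 95% interval -0.76 to 4.42, adjusted p = 1.0 by limma), so the 2 lines were not shown to differ. The rule called 92 genes (0.606%) for this difference, none of them a member. The difference was called without HepG2 SR 2 (2.77) and in the 5 libraries of like expression (4.0).

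Taken library by library with the same replicate number, FABP1 was 2.25-fold and 5.0-fold higher in SR in HepG2 and 5.55-fold and 39.1-fold higher in Huh7. A rise of at least 2-fold in each of the 4 pairs was seen for 45 genes, 0.297% of those tested. SR libraries both above WT libraries in each cell line were seen for 489 genes (3.22%).

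Most hepatocyte markers were also fitted higher in SR. The summed level of 9 hepatocyte markers (ALB, TTR, APOA1, APOB, SERPINA1, AFP, HNF4A, FOXA2 and CEBPA) was 4423 and 5442 FPKM in HepG2 WT and 5445 and 7486 FPKM in HepG2 SR, and 266 and 1119 FPKM in Huh7 WT and 540.0 and 5143 FPKM in Huh7 SR. The SR groups lay above the WT groups in HepG2 by a margin of 2.91 FPKM, and they overlapped in Huh7, where WT 2 exceeded SR 1. Of the 9 markers, 7 were higher in SR by the fit in HepG2 (median log2 difference 0.50) and all 9 in Huh7 (median 1.46), while the median of all genes tested was -0.03 and -0.05. These medians moved with single libraries. In HepG2 it was 0.14 with 5 of 9 higher without HepG2 SR 2, and 0.86 with 6 of 9 higher without HepG2 SR 1. In Huh7 it was 0.44 with 6 of 9 higher without Huh7 SR 2, and 2.48 without Huh7 SR 1. The medians in the 5 libraries of like expression were 0.14 in HepG2 and 1.96 in Huh7. The part of this shift in the level of FABP1 was not tested.

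CEBPA, a liver transcription factor, was called higher in both lines, by 1.33 in HepG2 (SE 0.44) and 1.32 in Huh7 (SE 0.44). Its levels were 17.9 and 27.2 FPKM in HepG2 WT against 41.5 and 78.2 FPKM in SR, and 12 and 14.5 FPKM in Huh7 WT against 42.9 and 27.4 FPKM in SR. HNF4A, the nuclear receptor that sustains hepatocyte identity, was called higher in Huh7 (0.96, SE 0.40), and after rescaling to a common sum it was no longer called (0.88). Neither was called in either line in the 5 libraries of like expression, where CEBPA differed by 0.88 in both and HNF4A by 0.37 in HepG2 and 1.15 in Huh7. The call of CEBPA in HepG2 was also lost without HepG2 WT 1 and without HepG2 SR 2, its call in Huh7 without Huh7 WT 1 and without Huh7 SR 1, and the call of HNF4A without any 1 of the 4 Huh7 or 2 HepG2 SR libraries. The labelled liver origin was also checked with ALB, which ranged from 12 FPKM in Huh7 WT 1 to 4713 FPKM in HepG2 SR 2. Of 5 leukocyte markers, PTPRC and CD3E stayed under 0.05 FPKM in every library, and LYZ made up most of the summed level, which ranged from 227 to 893 FPKM in HepG2 and from 44.9 to 1062 FPKM in Huh7. LYZ, which encodes lysozyme, was 224 and 280 FPKM in HepG2 WT against 891 and 816 FPKM in SR, and 57.1 and 44.2 FPKM in Huh7 WT against 79.2 and 1058 FPKM in SR. It lay above WT in both SR libraries of each line, as FABP1 did. LYZ was called higher in Huh7 SR (2.51, SE 1.05, unadjusted p = 0.0497 by limma) but not in HepG2 SR (1.76, SE 1.05). The Huh7 call was lost with a pseudocount of 0.1, no filter, rescaling or quantile normalization. It was also lost with eBayes without trend and with Huh7 fitted alone. A filter at 0.1 FPKM and a replicate block kept the Huh7 call. With HepG2 fitted alone, LYZ was called higher in HepG2 SR. In the 5 libraries of like expression it differed by 4.55 in Huh7 and 1.83 in HepG2. Its part in the change of FABP1 was not tested. The summed fibroblast and endothelial markers reached at most 8.92 and 4.52 FPKM.

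**Figure D1:**
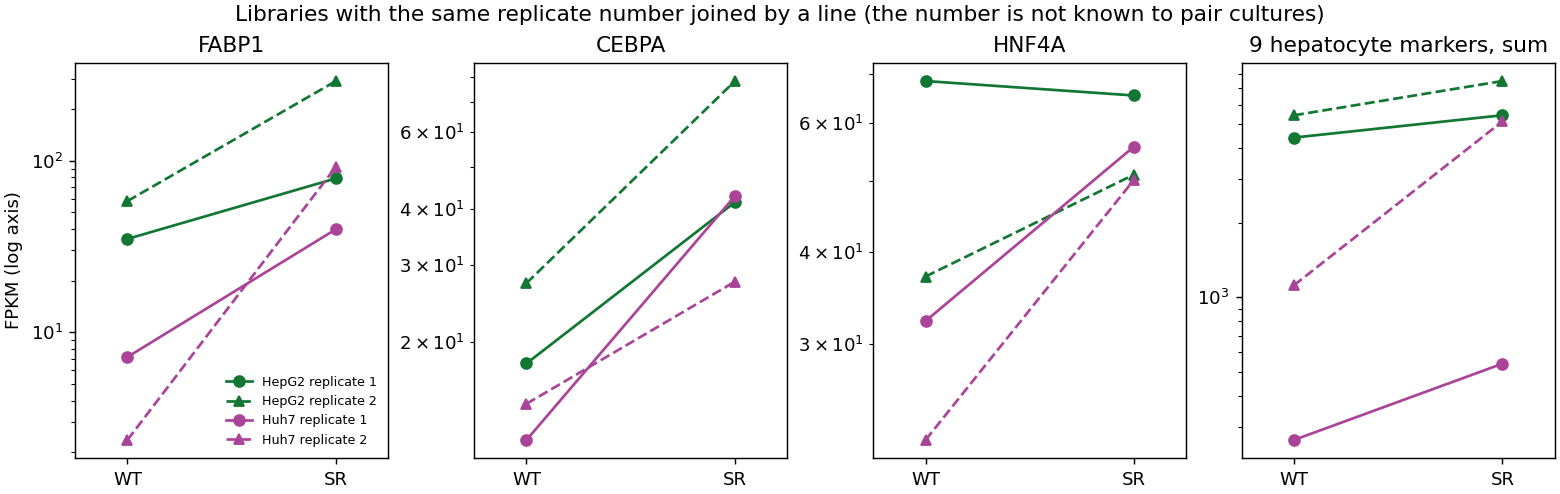
FPKM on log axes of FABP1, CEBPA, HNF4A and the sum of 9 hepatocyte markers in WT and SR, with a line joining libraries of 1 cell line and replicate number (circles and solid lines for replicate 1, triangles and dashed lines for replicate 2). FABP1, CEBPA and the marker sum go up along all 4 lines, and HNF4A goes up along all but HepG2 replicate 1.

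The genes whose pattern over the 8 libraries lay closest to that of FABP1 are named by a fixed measure. Closeness was the root mean square difference between gene profiles of log2(FPKM + 1), each centred on its own mean over the 8 libraries. The 5 closest were B4GAT1-DT at 0.76, CKB (brain-type creatine kinase) at 0.82, LYZ at 0.94, FGL1 (a protein secreted by liver) at 0.94 and BCAM (an epithelial adhesion molecule) at 0.94. CKB was 36.6 and 38.4 FPKM in HepG2 WT and 49.6 and 308 FPKM in SR, and 14.7 and 11.1 FPKM in Huh7 WT and 32.1 and 62.7 FPKM in SR. FGL1 was 33.2 and 35.1 FPKM against 58.0 and 66.6 FPKM in HepG2, and 6.91 and 8.29 FPKM against 20.4 and 79.1 FPKM in Huh7. In both genes the SR libraries lay above the WT libraries in each line, as in FABP1. Choosing genes by closeness to FABP1 over these same libraries favours that arrangement.

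PPARA was the lowest of the 8 members in all 4 HepG2 libraries and ranged over 2.44-fold in the 8 libraries. The gene lies on chromosome 22 from 46150521 to 46243756 on the plus strand. Its level was 10.01 and 7.23 FPKM in HepG2 WT and 7.0 and 4.10 FPKM in SR, and 4.64 and 7.98 FPKM in Huh7 WT and 5.43 and 5.78 FPKM in SR. Both HepG2 SR libraries lay below both WT libraries, an arrangement found in 20.1% of genes in that line, and in Huh7 the groups overlapped. The fitted difference was -0.57 in HepG2 (SE 0.42) and -0.11 in Huh7 (SE 0.42, 95% interval -1.10 to 0.88), neither called. The 5 libraries of like expression gave -0.25 and -0.41, also not called. In the 5 closest genes by the same measure (TTC5, MPRIP, SCAND1, CAMKMT and a gene with the identifier ENSG00000290728) the distance was 0.09 to 0.12. These distances are smaller than those around FABP1, whose own profile spans a wider range.

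PPARA was not the main PPAR transcript. Per library it held 12.1 to 32.5% of the summed FPKM of PPARA, PPARD and PPARG, and PPARG, best known from fat cells, held 34.3 to 71.8% and was the largest in every library. RXRA, the partner of PPARA on DNA, was 14.4 to 17.0 FPKM in HepG2 and 4.17 to 11.4 FPKM in Huh7. It was called lower in Huh7 than in HepG2 (-1.08, SE 0.32), and in the 5 libraries of like expression too (-0.67). PPARGC1A, a coactivator of PPARA, was called higher in Huh7 than in HepG2 (1.37, SE 0.53), with its highest levels, 9.86 and 8.07 FPKM, in Huh7 WT 1 and Huh7 SR 1. In the 5 libraries of like expression, which lack both, the difference was 0.38 and not called. Of 12 receptors and partners tested, none was called between SR and WT in either line, and the list's median was -0.08 in HepG2 and -0.19 in Huh7. CREB3L3, a liver transcription factor named after its values were seen, differed by 0.88 in Huh7 with all 8 libraries, not called. In the 5 libraries it differed by 1.96.

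ACSL1 was the most variable of the enzymes, and its variation followed single libraries. The gene lies on chromosome 4 from 184755595 to 184826818 on the minus strand. In HepG2 it was 30.6 and 40.3 FPKM in WT and 29.8 and 20.4 FPKM in SR. Both SR values lay below both WT values there, as in 20.1% of genes in that line. In Huh7 ACSL1 was 2.18 and 58.2 FPKM in WT and 1.68 and 21.9 FPKM in SR. The 2 low values were both in replicate 1 libraries, the pair that stood apart in overall expression, and the WT and SR groups of Huh7 overlapped. Taken by replicate number, which is not known to pair cultures, SR was 0.973 and 0.507 times WT in HepG2 and 0.769 and 0.376 times in Huh7. The fitted difference was -0.49 in HepG2 (SE 1.45) and -0.81 in Huh7 (SE 1.45, 95% interval -4.27 to 2.65). With the low Huh7 WT 1 left out, ACSL1 was called lower in Huh7 SR (-2.92), and in the 5 libraries of like expression as well (-1.37). Without Huh7 WT 2 the sign turned (1.30, not called).

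The ACSL gene with the largest share of the family's FPKM differed between libraries. ACSL1 held 0.796 to 31.9% of the summed FPKM of the 5 ACSL genes. ACSL4, which prefers arachidonic acid, held 3.13% in HepG2 SR 2 and 83.4% in Huh7 SR 1, its lowest and highest shares. ACSL3, found on lipid droplets and the endoplasmic reticulum, held 12.4 to 78.1%, the highest in HepG2 SR 2. ACSL5 held 1.19 to 34.1%. ACSL4 was 26.7 and 34.4 FPKM in Huh7 WT and 176 and 75.2 FPKM in Huh7 SR, both SR values above both WT values, an arrangement found in 9.06% of genes there. Its fitted difference of 1.89 (SE 1.34) was not called. ACSL5 was 63.7 and 38.8 FPKM in HepG2 WT and 27.3 and 1.39 FPKM in SR, a fitted difference of -2.63 (SE 1.27). With all 8 libraries and no replicate block, no gene of the family was called between SR and WT in either line. Without HepG2 SR 1, ACSL3 was called higher (1.24) and ACSL4 (-2.71) and ACSL5 (-4.41) lower in HepG2 SR, and with Huh7 fitted alone ACSL4 was called higher in Huh7 SR.

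**Figure D2:**
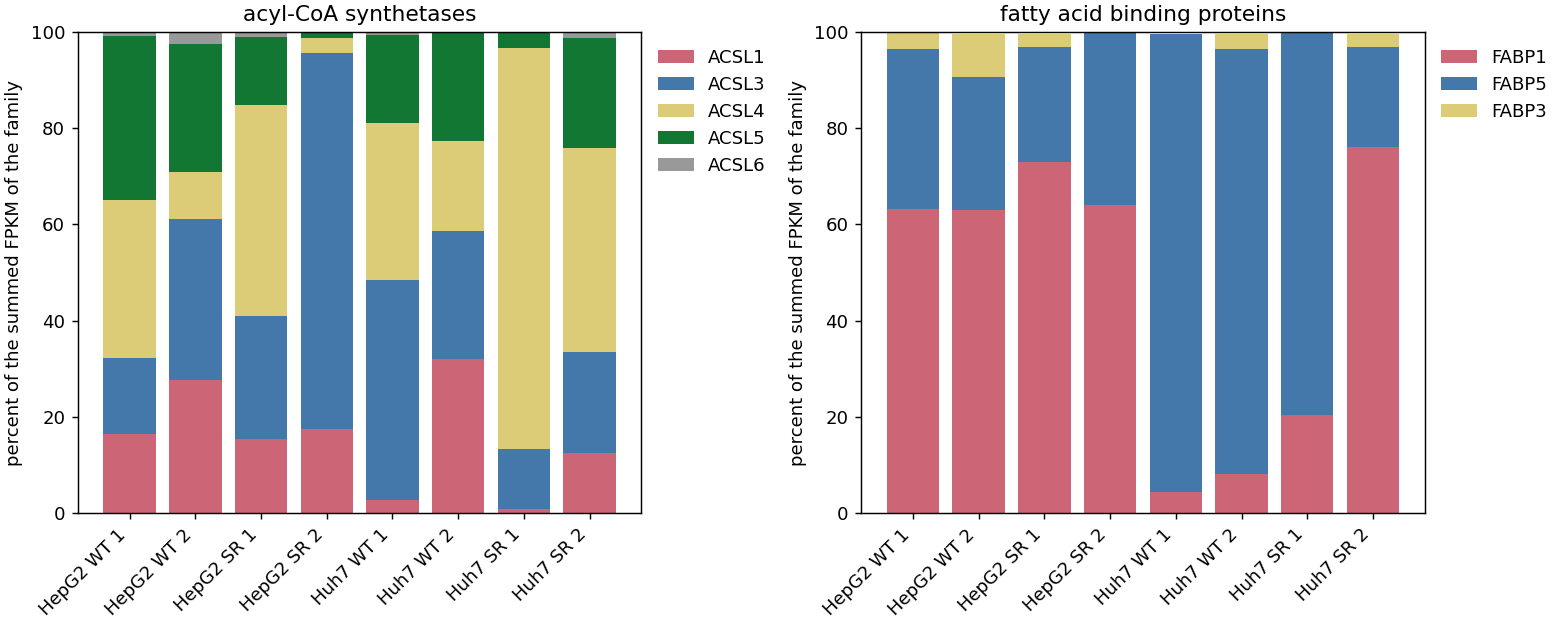
Percent of the summed FPKM of each family held by its genes, per library, for the acyl-CoA synthetases (left) and the fatty acid binding proteins (right, where genes under 1% in every library are not drawn). The ACSL4 share is 83.4% in Huh7 SR 1 and 3.13% in HepG2 SR 2, and the FABP1 share is 4.39 and 8.19% in Huh7 WT against 63.0 to 76.1% in the HepG2 libraries and Huh7 SR 2.

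Among the fatty acid binding proteins, FABP1 and FABP5, the epidermal form, together made up most of the summed FPKM in every library. FABP1 held 63.2 and 63.0% of the family's FPKM in HepG2 WT, and 73.0 and 64.1% in HepG2 SR. In Huh7 it held 4.39 and 8.19% in WT, and 20.4 and 76.1% in SR. FABP5 was 156 FPKM in both Huh7 WT 1 and Huh7 SR 1 and 162 FPKM in HepG2 SR 2, against 18.4 to 26.0 FPKM in the other 5 libraries, so its high values were those of the 3 libraries that stood apart, WT and SR alike. FABP4, the adipocyte form, was listed at 0 in all 8 libraries. The uptake proteins CD36 (0.364 to 7.62 FPKM), SLC27A2 (0.451 to 9.67 FPKM) and SLC27A5 (1.32 to 9.82 FPKM) were low, and none was called between SR and WT. Of 10 genes tested for binding and uptake, FABP1 was the 1 called in Huh7 and none was called in HepG2, with list medians of 0.58 and -0.47. Both medians turned sign when 1 library was left out, to -0.06 in Huh7 without Huh7 SR 2 and to 0.09 in HepG2 without HepG2 SR 2.

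CPT1A, the entry enzyme, was not called in either line. It lies on chromosome 11 from 68754620 to 68844410 on the minus strand. Its level was 38.5 and 21.1 FPKM in HepG2 WT and 23.6 and 14.0 FPKM in SR, and 34.8 and 17.1 FPKM in Huh7 WT and 36.8 and 23.3 FPKM in SR. The WT and SR groups overlapped in both lines, and replicate 1 exceeded replicate 2 in every group. The fitted difference was -0.62 in HepG2 (SE 0.52) and 0.26 in Huh7 (SE 0.52, 95% interval -0.98 to 1.49), and in the 5 libraries of like expression -0.26 and 0.43, not called. CPT1A made up 65.6 to 85.9% of the 3 CPT1 isoforms except in HepG2 SR 2, where it held 40.9% and CPT1B, the muscle form, 58.6%.

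CPT2 had levels of 11 and 10.1 FPKM in HepG2 WT, 8.98 and 15.2 FPKM in HepG2 SR, 8.79 and 4.73 FPKM in Huh7 WT, and 9.26 and 5.49 FPKM in Huh7 SR. The gene lies on chromosome 1 from 53196429 to 53214197 on the plus strand, and shares 99 bases with C1orf123 on the other strand. Groups overlapped in both lines, and the fitted differences were 0.14 (SE 0.45) and 0.12 (SE 0.45). SLC25A20, the carrier that moves acylcarnitine across the inner membrane, was 12 to 36.4 FPKM in HepG2 and 7.22 to 10.2 FPKM in Huh7. It was called lower in Huh7 than in HepG2 (-1.10, SE 0.38), but not in the 5 libraries of like expression (-0.84). Of 6 carnitine shuttle genes tested, all 6 were fitted higher in Huh7 SR, by 0.12 to 0.36, and 3 of 6 in HepG2 SR, but none was called in either line. The count in Huh7 rested on single libraries, at 3 of 6 without Huh7 WT 2 and 4 of 6 without Huh7 SR 1. In the 5 libraries of like expression it was 5 of 6 in Huh7 and 2 of 6 in HepG2.

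ACADVL was the most abundant member in 7 of 8 libraries, the exception being HepG2 SR 2, where FABP1 exceeded it. It lies on chromosome 17 from 7217125 to 7225273 on the plus strand, where 2717 bases overlap DLG4 on the other strand. Its level was 265 and 198 FPKM in HepG2 WT and 177 and 191 FPKM in SR, and 170 and 286 FPKM in Huh7 WT and 208 and 244 FPKM in SR. The HepG2 SR values lay below the WT values, an arrangement found in 20.1% of genes in that line. Those of Huh7 SR lay within the WT range. The fitted difference was -0.31 in HepG2 (SE 0.37) and 0.03 in Huh7 (SE 0.37, 95% interval -0.85 to 0.91), where rescaling to a common sum and quantile normalization turned its sign.

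ACADM was high in the Huh7 replicate 1 libraries of both WT and SR. It lies on chromosome 1 from 75724347 to 75787575 on the plus strand. Its level was 23.3 and 22.9 FPKM in HepG2 WT and 29.6 and 24.5 FPKM in SR, so that both SR values lay above both WT values, an arrangement found in 18.1% of genes in that line. In Huh7 it was 69.1 and 15.1 FPKM in WT and 74.4 and 22.2 FPKM in SR, with the high values in both replicate 1 libraries. The fitted differences were 0.21 (SE 0.79) and 0.32 (SE 0.79). ACADM shares 1379 bases with RABGGTB on the same strand, and RABGGTB was also highest in Huh7 WT 1 and Huh7 SR 1 (216 and 299 FPKM, against 44.2 to 124 FPKM elsewhere). How reads in the shared stretch were assigned is not given in the sources used here, and their part in the level of ACADM was not tested.

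HADHA was 120 and 89.5 FPKM in HepG2 WT and 105 and 53.3 FPKM in SR, and 88.0 and 69.4 FPKM in Huh7 WT and 86.4 and 64.0 FPKM in SR. Groups overlapped in both lines, and replicate 1 exceeded replicate 2 in every group. It lies on chromosome 2 from 26190635 to 26244726 on the minus strand, head to head with HADHB, the beta subunit of the same protein, with which it shares 1557 bases on opposite strands. Whether reads were counted by strand is not given in the sources used here, so reads from the shared stretch cannot be told apart. The fitted difference of HADHA was -0.46 in HepG2 (SE 0.42) and -0.07 in Huh7 (SE 0.42). HADHB, at 21.6 to 97.3 FPKM, differed by 0.25 and 0.51, neither called.

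**Figure D3:**
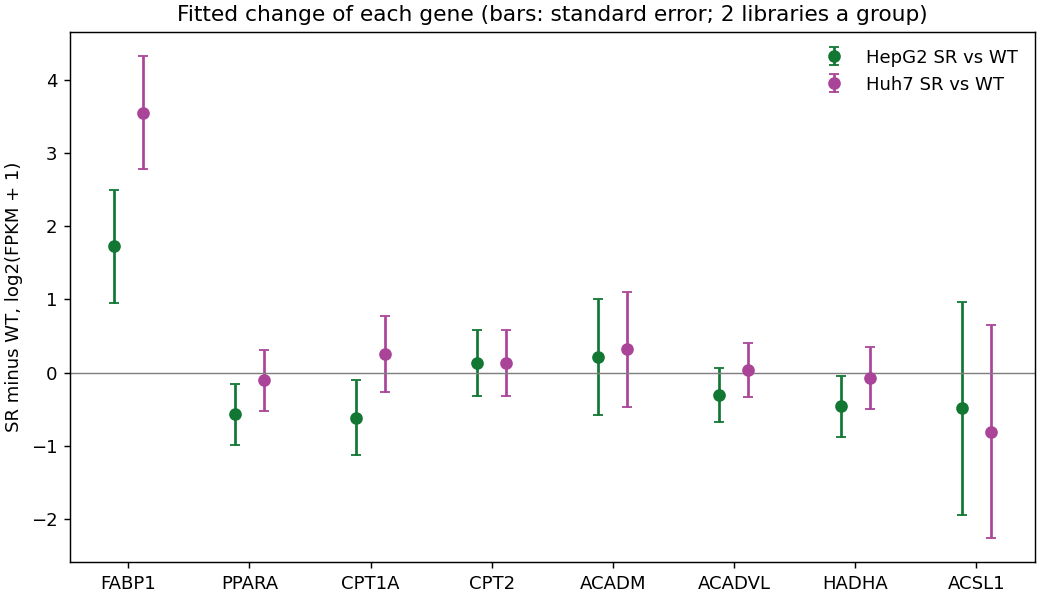
Fitted SR minus WT difference of log2(FPKM + 1) for each of the 8 genes in HepG2 (green) and Huh7 (purple), with bars of 1 standard error. FABP1 stands at 1.73 and 3.56, and the other 7 genes lie between -0.81 and 0.32.

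Ranked by mean level over the 8 libraries, ACADVL came first (217 FPKM, range 170 to 286), then HADHA (84.5 FPKM, 53.3 to 120) and FABP1 (75.6 FPKM, 2.36 to 291). ACADM (35.1 FPKM), CPT1A (26.2 FPKM) and ACSL1 (25.6 FPKM) followed, then CPT2 (9.20 FPKM) and PPARA (6.52 FPKM). The ranges of neighbours overlapped at every step of this order except between ACADVL and HADHA. The highest value was 123 times the lowest for FABP1 and 34.7 times for ACSL1, and 1.69 to 4.93 times for the other 6 genes.

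Between SR and WT, no gene of mitochondrial beta-oxidation was called. Of 16 genes tested for mitochondrial beta-oxidation, 8 were fitted higher in HepG2 SR and 13 in Huh7 SR, with medians of 0.07 and 0.32 against -0.03 and -0.05 for all genes. Over the 5 libraries of like expression 11 and 9 were higher, with medians of 0.12 and 0.26, and ACAD11 was among those lower in Huh7. HADH, the short-chain hydroxyacyl-CoA dehydrogenase, came closest in Huh7 (0.93, SE 0.40), with levels of 7.75 and 6.39 FPKM in WT and 19.4 and 10.5 FPKM in SR. It was called there after quantile normalization, with no filter on low values and without Huh7 SR 2 (1.35). ACAA2, the thiolase that ends the cycle, was 45 to 56.8 FPKM in HepG2 and 26.2 to 28.7 FPKM in Huh7 and was called lower in Huh7 (-0.83, SE 0.20), with no overlap between the labelled lines. ETFDH, which passes electrons to the respiratory chain, was 4.30 to 12 FPKM and differed by 0.29 and 0.24. In HepG2 HADH was 5.87 and 8.01 FPKM in WT and 14.4 and 11.2 FPKM in SR (0.80, SE 0.40, not called). Both SR libraries of HADH thus lay above both WT libraries in each line, an arrangement found in 3.22% of genes tested. Among the pathway genes tested, ECHS1, SCP2 and DBI shared it with HADH and FABP1. HADH, ACAD11, ECHS1, SCP2 and DBI were named after their values were seen.

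In the peroxisome, which shortens the longest chains, 12 genes were tested and none was called between SR and WT, with medians of -0.07 in HepG2 and 0.23 in Huh7. The 5 libraries of like expression gave medians of 0.13 and 0.36. ACAA1 (1.13) and ACOX2 (1.76), named after their values were seen, were among those fitted higher there in Huh7 SR. EHHADH, the peroxisomal bifunctional enzyme, was 1.07 and 1.52 FPKM in Huh7 WT 1 and Huh7 SR 1 against 7.89 to 20.8 FPKM elsewhere, the same libraries in which ACSL1 was low.

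**Figure D4:**
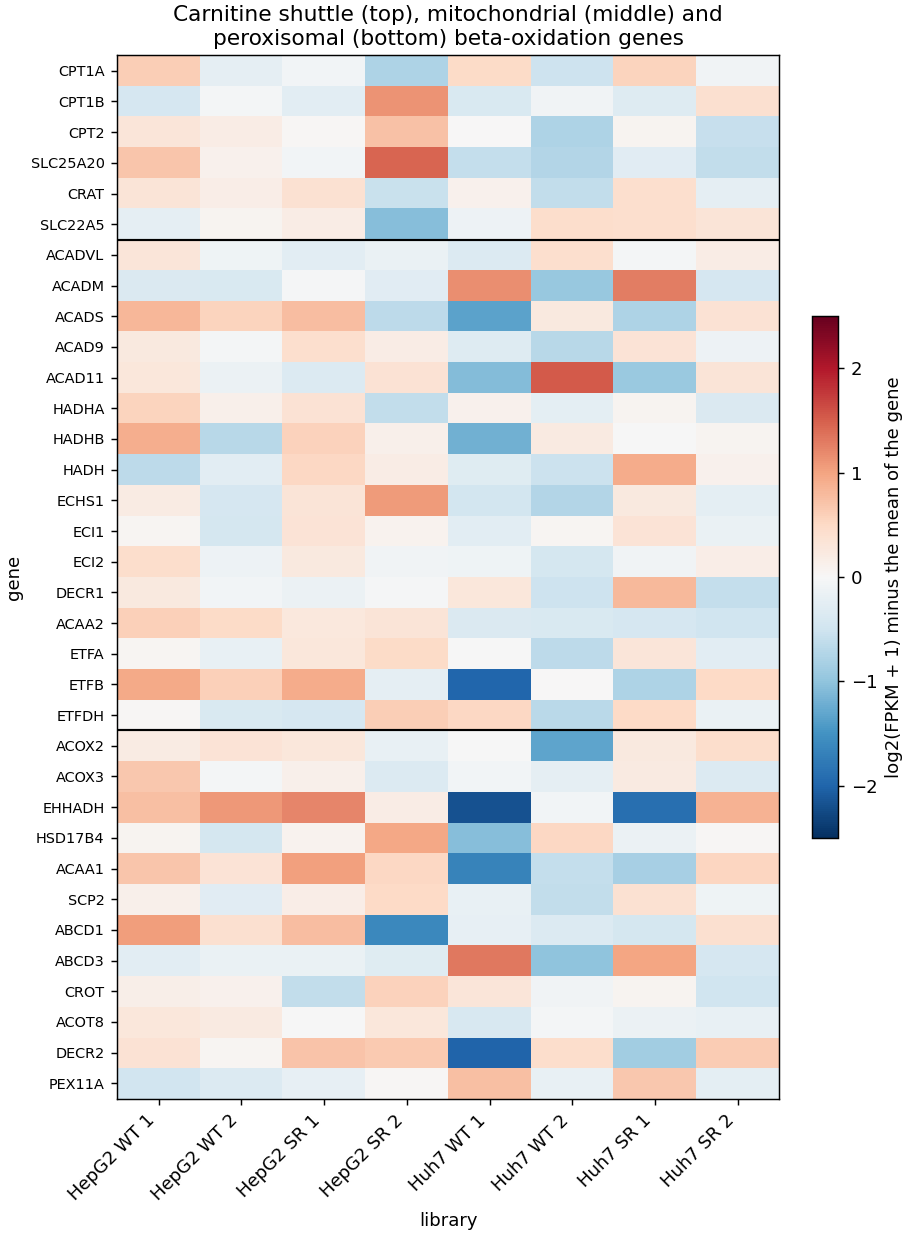
Level of log2(FPKM + 1) minus the mean of the gene over 8 libraries, for 6 carnitine shuttle, 16 mitochondrial and 12 peroxisomal genes in rows and the libraries in columns (red above, blue below the mean, scale from -2.5 to 2.5). The columns of Huh7 WT 1 and Huh7 SR 1 resemble each other, with ACADM and ABCD3 red and ETFB, EHHADH and ACAA1 blue in both.

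Between SR and WT, no known target of PPARA other than FABP1 was called with all 8 libraries. Of 19 tested, 6 were fitted higher in HepG2 SR (median -0.31) and 15 in Huh7 SR (median 0.25), and FABP1 in Huh7 was the only call. Over the 5 libraries of like expression 8 and 14 were higher, with medians of -0.14 and 0.43. In Huh7 SR, APOA5 (3.90), named after its values were seen, and ANGPTL4 (1.90) were among those fitted higher there beside FABP1, and ACSL1 was fitted lower. PDK4, the kinase that holds back glucose oxidation, was 13.7 and 8.08 FPKM in Huh7 WT 1 and Huh7 SR 1 and at most 1.15 FPKM in the others. PLIN2, the coat protein of lipid droplets, was 58.6 to 271 FPKM and differed by -0.16 and -0.06. ANGPTL4, an inhibitor of lipoprotein lipase, was 1.34 to 7.79 FPKM and differed by -0.55 and 0.78, neither called with all 8 libraries. Of 10 genes for malonyl-CoA and AMPK control of CPT1A, none was called between SR and WT.

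Between the labelled lines, FABP1 was the only member called, lower in Huh7 than in HepG2 by 2.22 on the log2 scale (SE 0.55, 95% interval of the difference -3.52 to -0.93, adjusted p = 0.813 by limma). That contrast took the mean of WT and SR in each line and called 744 genes (4.90%), again with none at an adjusted p under 0.05. It was called in the 5 libraries of like expression too (-1.78). FABP1 levels of the lines overlapped, since both Huh7 SR libraries exceeded HepG2 WT 1. CPT2 differed by -0.63 (SE 0.32), not called, and was called without Huh7 WT 1 (-0.83) and in those 5 libraries (-0.82). ACSL1 differed by -1.56 (SE 1.03), not called, and was called without Huh7 WT 2 (-2.61), but it was 0.14 higher in Huh7 in the 5 libraries. Of the 9 hepatocyte markers, 5 were also called lower in Huh7 (ALB, TTR, APOA1, AFP and SERPINA1, by -4.13 to -2.01), and all of these but ALB in the 5 libraries of like expression too. ACAA1 and UCP2, named after their values were seen, were the other pathway genes called for this contrast, both lower in Huh7 (-1.28 and -1.01), and UCP2 was not called in the 5 libraries (-0.87). In Huh7, no member had both SR values below both WT values, an arrangement found in 12.9% of genes.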

How the data were processed

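The authors enriched polyadenylated RNA, prepared NEBNext libraries and deposited 1 table of FPKM per library, without pooling replicates. The submitters' processing notes name fastp 0.20.0 and GRCh38. The aligner, quantifier and annotation are not given in the sources used here, and neither is whether counting used strand. The authors used edgeR, which needs counts and was not repeated on FPKM.

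Samples were grouped by their labels. Symbols matched 62666 of 63241 Ensembl identifiers. Genes at 1 FPKM or more in 2 or more libraries were kept, and log2(FPKM + 1) was modelled in limma 3.58.1 under R 4.3.3 by lmFit and trended eBayes, with 4 group means and 4 residual degrees of freedom. The pseudocount of 1 makes fold changes of low genes too small. Calls needed an unadjusted p under 0.05 and a log2 change of at least 0.5 in size, the limits the study used, and adjusted p-values cover all genes tested. The members, gene lists and named genes were chosen with earlier results of these data known. Named were the members, 18 further pathway and marker genes, list genes called between SR and WT, and the 5 genes closest in profile to FABP1 and to PPARA. A few genes of these lists are not reported here and were left out of list counts and sums. Depth was estimated from the spacing of low values in 35762 genes with 1 transcript in GENCODE release 29. Promoters came from RefSeq (GRCh38.p14).

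On simulated data with 200 of 15173 genes changed in Huh7, the fit called 93% of genes changed by 2 on the log2 scale and 98% of those changed by 4. The changed genes were drawn from a mean level above that of PPARA and CPT2. The noise was normal and independent between libraries, unlike the real libraries, some of which stood apart. These shares are thus not the power for the members, whose SE reached 1.45 for ACSL1. Alternatives were a pseudocount of 0.1, filters at 0.1 or none, rescaling (TPM), quantile normalization, each cell line alone, a replicate block, eBayes without trend, a log2 limit of 1, adjusted p, each library left out and, added after the values were seen, the 5 libraries of like expression.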

Additional observations from a re-analysis of the deposited data

Results flagged for a closer look

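ACSL3, which activates long-chain fatty acids beside ACSL1, was fitted higher in HepG2 SR and lower in Huh7 SR. It was 29.7 and 48.7 FPKM in HepG2 WT and 49.1 and 91.3 FPKM in HepG2 SR. Both SR values lay above both WT values, as in 18.1% of genes in HepG2. In Huh7 ACSL3 was 37.5 and 48.6 FPKM in WT and 26.2 and 37.5 FPKM in SR. The higher SR value there lay 0.0075 FPKM below the lower WT value, and 12.9% of genes in Huh7 had both SR values below WT. The interaction test of the difference gave -1.23 on the log2 scale (Huh7 minus HepG2, SE 0.63, adjusted p = 1.0 by limma), which was not called. The fitted differences were 0.80 in HepG2 and -0.43 in Huh7, neither called with all 8 libraries. Without HepG2 SR 1 the HepG2 difference was 1.24 and called, and a replicate block made the same 0.80 a call.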

How the results depend on the processing

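FABP1 was higher in SR in both lines, and lower in Huh7 than in HepG2, under every alternative run. Its rise in Huh7 was called under each except the adjusted p. With a pseudocount of 0.1 it was 3.84. Counts of calls, out of the same 15173 genes tested, depended on single libraries. The numbers of members called say little about the members as a set. Leaving out each library in turn gave 57 to 1749 genes in HepG2 (lowest without HepG2 SR 2, highest without HepG2 SR 1), 154 to 818 in Huh7 (without HepG2 WT 2 and without Huh7 WT 1), 24 to 945 for the difference (without HepG2 WT 1 and without HepG2 SR 1) and 236 to 1735 between the lines (without HepG2 WT 1 and without Huh7 SR 2). Members called were then 0 to 1, 1 to 2, 0 to 1 and 1 to 2 in that order. At an adjusted p under 0.05 there were 0 genes and 0 members in all 4 contrasts.

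With the replicate number as a block, 1392 genes were called in HepG2, 669 in Huh7, 535 for the difference and 2488 between the lines, with 1 member in HepG2 (FABP1) and 3 between the lines. Of the listed genes, DBI, FABP5, ACSL3 and AFP were then also called higher and ACSL5 and CIDEC lower in HepG2, and in Huh7 DBI, ACSL4, HADH, ACAA1, APOA1, ALB and SERPINA1 higher and NCOA1 and PRKAG2 lower. The deviations of same-numbered WT and SR libraries from their group means correlated at 0.125 in HepG2 and 0.796 in Huh7. With only 2 numbers a line, the libraries were taken to share a number and no more. In the 5 libraries of like expression 1777 genes were called in Huh7, 940 for the difference and 1263 between the lines, with 2, 1 and 2 members, and the cause was not tested. The block fit and the 5-library fit each tested 15173 genes. With so many genes called, their numbers of members called say little about the members as a set. A filter at 0.1 FPKM gave 504 genes in HepG2 and 254 for the difference, no filter gave 168 for the difference, Huh7 alone gave 124, and a log2 limit of 1 gave 327 between the lines.

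Changes of uncalled members turned sign in some settings, and the cause was not tested. ACADVL in Huh7 was -0.060 after rescaling, -0.12 after quantile normalization and -0.23 in the 5 libraries. Those 5 also turned CPT2 (-0.21) and HADHA (0.017) in HepG2, and ACADM (-0.49), CPT1A (-0.36) and ACSL1 (0.14) between the lines. With a library left out, the SR minus WT change in Huh7 ran from -0.75 to 1.38 for ACADM, -0.34 to 0.41 for ACADVL, -2.92 to 1.30 for ACSL1, -0.24 to 0.75 for CPT1A, -0.26 to 0.51 for CPT2, -0.28 to 0.14 for HADHA and -0.44 to 0.23 for PPARA. In HepG2 it ran from -0.21 to 0.48 for CPT2 and -0.95 to 0.017 for HADHA. Between the lines it ran from -0.071 to 0.30 for ACADVL, -0.025 to 0.47 for CPT1A and -0.45 to 0.034 for HADHA. Differences of the 7 uncalled members are not shown to be absent at 2 libraries a group.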
